A study of Mus musculus with 12 samples.

Results

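The angiopoietin-Tie and apelin signalling systems were compared between side population cells of 2 muscle sources in the mouse. The members were 8 genes: the ligands Angpt1, Angpt2, Angpt4 and Apln, the receptors Tek, Tie1 and Aplnr, and the receptor phosphatase Ptprb. They were found as the probe sets whose only gene symbol in the array's annotation was one of these names, which gave 14 of the 45037 probe sets that are not controls, or 8 of the 18193 genes named in that way. The groups were 6 preparations of side population cells from extraocular muscle (EOM), the muscles that move the eye, and 6 from tibialis anterior (TA), a limb muscle, each separated independently and hybridized to 1 array. The side population is a minor set of cells, found by flow cytometry, that keeps little Hoechst dye because its transporters export it. Strain, sex, age, treatment and the number of animals per preparation are not given in the labels used here, and no allele or agent is named. Whether preparations came from different animals is not stated, so p-values measure only the spread between these preparations. The values are MAS5 signals, in which the probes of a probe set are summarized in 1 intensity on a linear scale.

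Angiopoietins are secreted proteins that bind the endothelial receptor tyrosine kinase Tie2, encoded by Tek. Angpt1, made mainly by mural and stromal cells, activates Tie2 and stabilizes vessels, whereas Angpt2, stored in endothelial cells, can block or activate it depending on context. Tie1 is a second, related receptor that binds no angiopoietin directly and modulates Tie2, and Ptprb (VE-PTP) removes phosphate from Tie2. Tek is known from endothelium above all, and it has also been described in haematopoietic stem cells and in satellite cells of muscle. Apelin, encoded by Apln, is a peptide ligand of the G protein-coupled receptor Aplnr, and the pair guides vessel growth and calibre.

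The arrays had been scaled to 1 trimmed mean, and 3 of them stood apart. EOM 1 had a median signal of 87.2, TA 3 of 69.5 and TA 5 of 63.1, where the other 9 arrays had 31.1 to 43.4. Their hybridization controls were also brighter, at 10859 or more against 6573 or less, and values are given with and without them where that matters. The log2 of the 3' to 5' ratio of the beta-actin and Gapdh controls can be a sign of shortened RNA. It was 3.27 to 5.00 in EOM and 2.35 to 5.88 in TA. The RNA of all preparations had been amplified in 2 cycles, and the part of this step in the ratio was not tested. The 3 arrays that stood apart had the highest ratios, at 5.00 (EOM 1), 5.74 (TA 3) and 5.88 (TA 5). The next highest was 4.96 (TA 2). With 6 arrays per group and no counts behind a signal, the number of arrays limits the precision.

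Angpt1 was higher in EOM side population cells, while Tie1, Ptprb and Aplnr were lower. For Tek, the receptor that Angpt1 activates, and for Angpt2, Angpt4 and Apln no difference passed the test. Of the 14 probe sets, 11 passed the filter on low signal and were tested. Among these, 5 fell and 1 rose in EOM (limma, adjusted p under 0.05), where over all 27022 tested probe sets 5.03% fell and 3.2% rose. In the same 5 probe sets all EOM arrays lay below all TA arrays, and in the 1 that rose all lay above. Such separation was found in 3.53% (below) and 1.9% (above) of all tested probe sets. Counted by gene, taking for each the probe set of highest mean signal, 1 of 4 ligands rose and 3 of the 4 receptor and phosphatase genes fell. Among all 13067 named genes tested, 6.81% fell and 4.05% rose. The median log2 fold change of the 8 genes was -0.33, beside -0.04 over all named genes tested. Fold changes are EOM minus TA on the scale of log2(signal + 16), which understates the change of low signals. In such bulk preparations fewer cells of a type and less RNA per cell cannot be told apart.

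**Figure D1:**
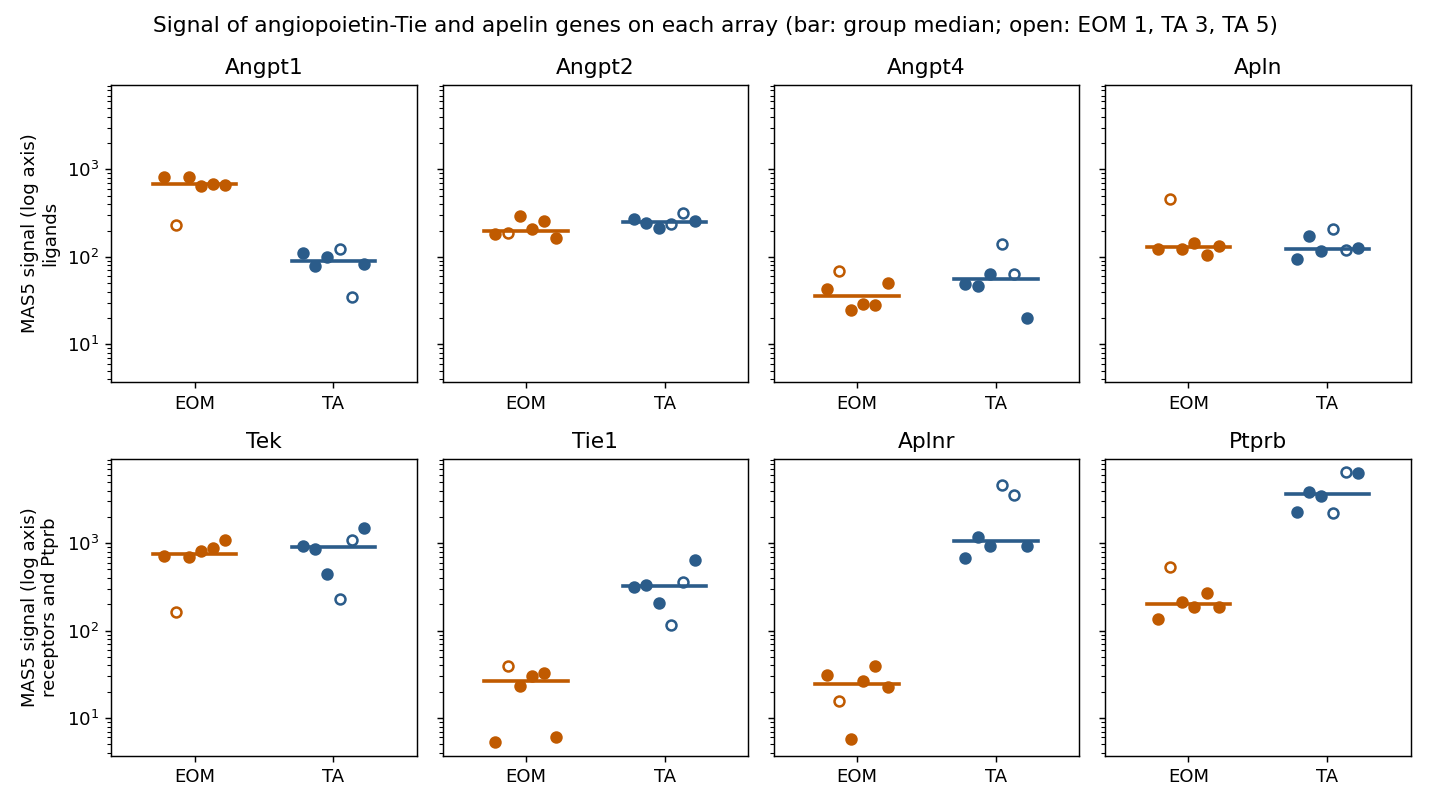
MAS5 signal (log axis) of the 4 ligand genes (upper row) and of the 3 receptor genes and Ptprb (lower row) on each of the 6 EOM and 6 TA arrays; bars are group medians and open points are EOM 1, TA 3 and TA 5. The EOM points of Angpt1 lie above all TA points, those of Tie1, Aplnr and Ptprb lie below all TA points, and those of Tek, Angpt2, Angpt4 and Apln overlap with TA.

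Angpt1, the activating ligand of Tie2, was the only member that rose. Its probe set 1439066_at had a lowest signal of 231.8, a median of 674 and a highest of 817 in EOM, against 34.3, 90.7 and 123 in TA. The lowest EOM array was EOM 1, and the other 5 lay between 641 and 817, so that no EOM array overlapped with TA. The mean was 641 ± 214 across EOM arrays and 87.8 ± 31.1 across TA arrays (SD, n = 6 each), a log2 fold change of 2.63 ± 0.33 (SE, limma adjusted p = 3.76e-05). Without EOM 1 it was 2.89 (limma adjusted p = 2.62e-07). The other Angpt1 probe set, 1421441_at, did not pass the filter, with signals of 3.7 to 17.9 in EOM and 1.2 to 18.7 in TA, so the rise rests on 1 probe set.

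For Angpt2, the context-dependent Tie2 ligand, no difference passed the test. Probe set 1448831_at had a lowest signal of 163, a median of 197 and a highest of 291 in EOM, against 216, 249 and 316 in TA. The groups overlapped, and the log2 fold change was -0.26 ± 0.23 (SE, limma adjusted p = 0.632), with a 95% interval of -0.74 to 0.23. Its other probe set, 1459636_at, was below the filter, at 8.1 to 127.6 in EOM and 3.5 to 16.8 in TA. The value of 127.6 was that of EOM 1, and the other EOM arrays reached at most 20.2.

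Angpt4, the mouse counterpart of a further Tie2 ligand, had low signals and 2 tested probe sets that pointed in different directions. Probe set 1450325_at had a median of 35.9 in EOM (24.7 to 69.5) and 56.05 in TA (19.9 to 141), a log2 fold change of -0.40 ± 0.36 (SE, limma adjusted p = 0.623). Probe set 1455427_at had a median of 62.05 in EOM (21.6 to 107) and 12.4 in TA (4.8 to 75.5), a log2 fold change of 0.92 ± 0.45 (SE, limma adjusted p = 0.270). The groups overlapped in both. The high TA values of the second probe set were those of TA 3 and TA 5, at 75.5 and 53.7, and without EOM 1, TA 3 and TA 5 it passed the threshold at 1.44 (limma adjusted p = 0.0150).

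Apln, the precursor of apelin and also a gene of endothelial tip cells, did not pass the test. Its only probe set, 1451038_at, had a lowest signal of 104.6, a median of 128 and a highest of 464 in EOM, against 95.4, 123 and 209 in TA. The value of 464 was that of EOM 1, and the other EOM arrays lay between 104.6 and 143. The log2 fold change was 0.19 ± 0.33 (SE, limma adjusted p = 0.848), with a 95% interval of -0.50 to 0.88. Without EOM 1 it was -0.11 (limma adjusted p = 0.818).

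Tek, the Tie2 receptor, did not pass the test, and all its values rest on 1 probe set, 1418788_at. Tek had a lowest signal of 162, a median of 758.5 and a highest of 1089 in EOM, against 230.2, 894 and 1505 in TA. The lowest arrays were EOM 1 and TA 3, and the groups overlapped over most of their range. The log2 fold change was -0.18 ± 0.46 (SE, limma adjusted p = 0.904), with a 95% interval of -1.14 to 0.78, so that differences up to these bounds are not excluded. The estimate turned sign without EOM 1, at 0.19 (limma adjusted p = 0.770), and without TA 6, at 0.03. Both low arrays are among the 3 that stand apart in median signal, and the part of this in the Tek values was not tested.

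Tie1, the partner receptor, fell in EOM. Its only probe set, 1416238_at, had a lowest signal of 5.3, a median of 26.85 and a highest of 39.2 in EOM, against 116, 320.05 and 639 in TA. The lowest TA array, TA 3, was above all EOM arrays. The mean was 22.8 ± 14.2 across EOM arrays and 328 ± 178 across TA arrays (SD, n = 6 each), a log2 fold change of -3.08 ± 0.38 (SE, limma adjusted p = 3.07e-05). Without EOM 1 it was -3.20 (limma adjusted p = 5.59e-06). The EOM mean is below the level of the filter, a signal of 26.9, so that Tie1 passed the filter through TA and the size of its fall depends on the constant added, at -3.94 with 1 and -2.07 with 64.

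Because Tie1 fell and Tek did not pass the test, the sequences around the starts of both genes are shown, each from 250 bases before to 50 after the start, 5′ to 3′ on the gene's strand, from RefSeq (GRCm38.p6). RefSeq promoters were found for 4 of the 8 members: Tek, Tie1, Apln and Angpt4. The Tie1 window is chr4:118489800-118490099 on the minus strand and the Tek window is chr4:94739039-94739338 on the plus strand. Capitals mark matches on either strand to short strings that transcription factor families are known to bind. For the ETS family they were AGGAAG as well as CCGGAA, for forkhead factors TGTTTAC, for the family named after its motif GATAAG, and for KLF factors CACCC.
Tie1: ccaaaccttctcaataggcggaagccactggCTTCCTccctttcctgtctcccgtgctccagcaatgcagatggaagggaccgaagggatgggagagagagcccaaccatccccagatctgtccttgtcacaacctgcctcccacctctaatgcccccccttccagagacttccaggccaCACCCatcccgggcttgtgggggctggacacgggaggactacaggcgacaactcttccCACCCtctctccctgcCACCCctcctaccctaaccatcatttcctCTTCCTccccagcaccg
Tek: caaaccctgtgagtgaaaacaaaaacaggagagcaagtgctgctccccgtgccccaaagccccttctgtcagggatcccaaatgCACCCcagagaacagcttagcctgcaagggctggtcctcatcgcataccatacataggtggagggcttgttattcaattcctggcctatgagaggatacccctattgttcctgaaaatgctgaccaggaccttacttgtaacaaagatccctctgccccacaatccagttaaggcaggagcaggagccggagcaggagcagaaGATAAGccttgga
The Tie1 window held 5 matches, AGGAAG at 2 places and CACCC at 3. The Tek window held 2, GATAAG and CACCC at 1 place each, and no match to either ETS string. The matches did not overlap each other. Of all 32851 RefSeq promoter windows of the same length, 35.4% held AGGAAG, 14.9% CCGGAA, 3.65% TGTTTAC, 7.44% GATAAG and 57.5% CACCC. A match is a description of the letters only, and their absence from a window says nothing about a factor.

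Ptprb, the phosphatase that acts on Tie2, fell in both of its tested probe sets. Probe set 1427486_at had a lowest signal of 136, a median of 201 and a highest of 539 in EOM, against 2214, 3650.05 and 6485 in TA. The highest EOM array was EOM 1, and it was still far below the lowest TA array, TA 3. The log2 fold change was -3.93 ± 0.35 (SE, limma adjusted p = 9.71e-07), and without EOM 1 it was -4.17 (limma adjusted p = 2.04e-08). Probe set 1436367_at gave 132 to 502 in EOM and 929.7 to 5673 in TA, a log2 fold change of -3.47 ± 0.39 (SE, limma adjusted p = 1.34e-05). The third, 1453908_at, did not pass the filter, at 0.9 to 12.3 in EOM and 0.9 to 78.1 in TA.

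Aplnr, the apelin receptor, fell in both of its probe sets. Probe set 1438651_a_at had a lowest signal of 5.8, a median of 24.55 and a highest of 39.6 in EOM, against 679, 1052 and 4624 in TA. All EOM arrays were below all TA arrays, and within TA the arrays TA 3 and TA 5, at 4624 and 3602, stood well above the other 4, at 679 to 1174. The log2 fold change was -5.33 ± 0.43 (SE, limma adjusted p = 4.48e-07), and without EOM 1, TA 3 and TA 5 it was -4.56 (limma adjusted p = 1.13e-08). The other Aplnr probe set, 1423037_at, fell less, with 1.9 to 73.7 in EOM and 113 to 229 in TA (log2 fold change -2.11 ± 0.35, SE, limma adjusted p = 0.000648). In that probe set TA 3 and TA 5, at 128 and 189, lay within the range of the other TA arrays. Both probe sets had the same direction and no overlap, and they differed in size. The EOM mean of 1438651_a_at, 23.6, is also below the level of the filter, and its log2 fold change was -6.13 with a constant of 1 and -4.18 with 64.

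**Figure D2:**
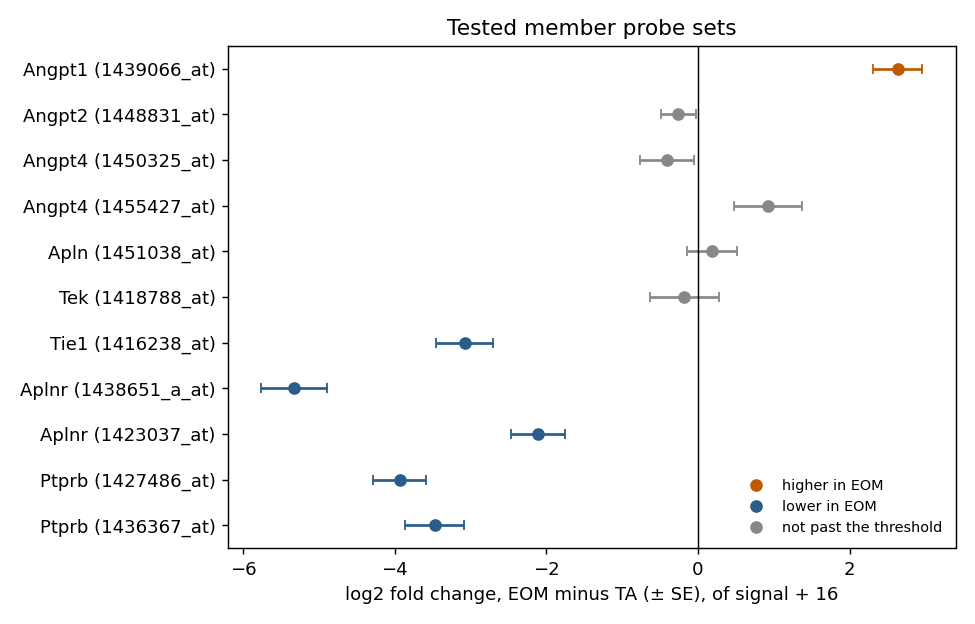
Log2 fold change (EOM minus TA, of signal + 16) of the 11 tested probe sets with the standard error of the fit as bars, ligands above and receptors and Ptprb below. The Angpt1 probe set lies at 2.63, the probe sets of Tie1, Aplnr and Ptprb lie between -5.33 and -2.11, and those of Angpt2, Angpt4, Apln and Tek lie between -0.40 and 0.92.

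Ligands were set beside receptors by the difference of 2 genes' log2 values on each array, which shows whether they changed by unequal amounts between the sources but not which transcript is more abundant. Over 7 such pairs, p-values from an exact permutation test (two-sided, all assignments of 6 and 6 arrays) were adjusted over the pairs, and the smallest p the test can give is 0.00216. Angpt1 gained on Tek: the difference was -0.08 ± 0.45 on EOM arrays and -2.89 ± 1.32 on TA arrays (SD, n = 6 each), higher by 2.81 in EOM (exact permutation p = 0.00216, adjusted 0.00379). All 6 EOM arrays were above all 6 TA arrays. Angpt2 against Angpt1 moved by -2.89 and did not overlap either (exact permutation p = 0.00216, adjusted 0.00379). Apln against Aplnr was higher in EOM by 5.51, again with no overlap (exact permutation p = 0.00216, adjusted 0.00379). The size of this difference depended on the Aplnr probe set, at 2.30 with 1423037_at (adjusted p = 0.00303, exact permutation). In every pair that passed, here and below, only a single gene had passed the test on its own. Such a difference mostly restates the change of that gene and is not separate evidence.

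The 2 Tie receptors changed by unequal amounts. Tie1 minus Tek was -4.16 ± 1.36 on EOM arrays and -1.26 ± 0.26 on TA arrays (SD, n = 6 each), a difference of -2.89 (exact permutation p = 0.00216, adjusted 0.00379). With a constant of 64 it was -1.90 (adjusted p = 0.0152, exact permutation) and with 1 it was -3.75. All EOM arrays lay below all TA arrays, EOM 1 being nearest to TA at -1.69. Ptprb minus Tek differed by -3.75 (exact permutation p = 0.00433, adjusted 0.00606). Here EOM 1, at 1.64, overlapped with the lowest TA array at 1.27. Angpt2 minus Tek (-0.07, exact permutation p = 0.844) and Angpt4 minus Tek (-0.22, exact permutation p = 0.768) did not pass, with an adjusted p of 0.844 each. With the other Angpt4 probe set, Angpt4 minus Tek had the opposite sign, at 1.10 (adjusted p = 0.225, exact permutation).

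**Figure D3:**
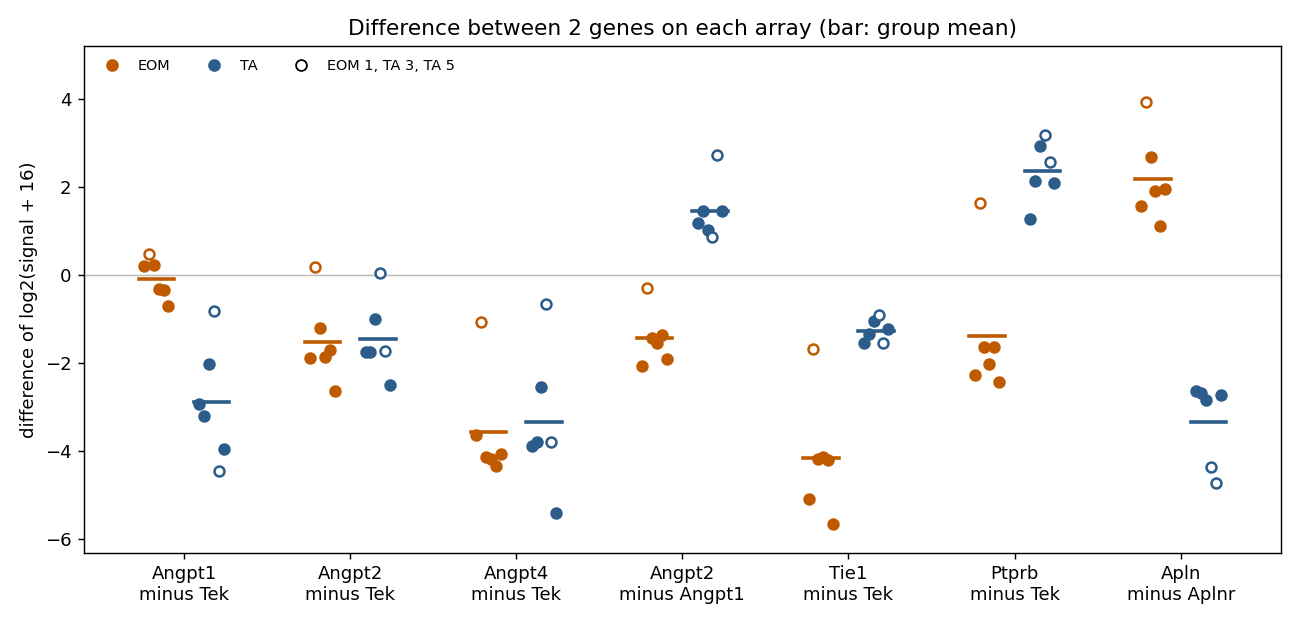
Difference of log2(signal + 16) between 2 genes on each array for the 7 pairs, EOM left of TA in each pair; bars are group means and open points are EOM 1, TA 3 and TA 5. EOM and TA do not overlap for Angpt1 minus Tek, Angpt2 minus Angpt1, Tie1 minus Tek and Apln minus Aplnr, overlap through EOM 1 for Ptprb minus Tek, and overlap broadly for Angpt2 minus Tek and Angpt4 minus Tek.

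The members were also set beside a list of endothelial markers. This list, like the other lists below, was chosen with earlier results of these data known. Its counts and its mean thus describe these data and are no separate evidence. The list held 26 markers. Of these 24 fell and 0 rose in EOM (limma with all 12 arrays), with a median log2 fold change of -3.56. The largest falls were those of the water channel Aqp1 (-5.07), the secreted Egfl7 (-4.75), Gpihbp1 (-4.44) and the surface receptor Cd93 (-4.10). The sum of the signals of all 26 was 2776 to 6389.7 in EOM and 38052 to 75170.2 in TA. No marker was listed at 0, which without detection calls does not show that each was detected. Pecam1 and Clec14a did not pass, at -1.84 and -1.19. The falls of Tie1 (-3.08), Ptprb (-3.93) and Aplnr (-5.33) came with this fall, and its part in them was not tested. The Tek estimate, -0.18, was above those of all 26 markers, of which Clec14a had the highest.

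The mean of the 26 markers on each array, as log2(signal + 16), averaged 6.99 ± 0.36 over EOM arrays and 10.2 ± 0.59 over TA arrays (SD, n = 6 each), a difference of -3.23. Relative to that mean, Tek was at 2.34 ± 1.12 on EOM arrays and -0.71 ± 0.44 on TA arrays (SD, n = 6 each), higher in EOM by 3.05 with no overlap between the groups (exact permutation p = 0.00216, adjusted over the 8 members 0.00346). Tie1 relative to the mean did not pass: it was -1.81 ± 0.37 on EOM arrays and -1.97 ± 0.29 on TA arrays (SD, n = 6 each), a difference of 0.16 (exact permutation p = 0.424, adjusted 0.424). That difference depended on the constant added to low signals, at -0.45 with a constant of 1 and 0.72 (adjusted p = 0.00289, exact permutation) with 64. Aplnr gave opposite results by its 2 probe sets: it was lower relative to the mean, with a difference of -2.09 (exact permutation p = 0.00433, adjusted 0.00577) by probe set 1438651_a_at, but higher by 1.12 (adjusted p = 0.00577, exact permutation) by its other tested probe set, 1423037_at. Its direction relative to the mean thus depends on the probe set. By the first it was -1.40 with a constant of 64 and -1.13 without EOM 1, TA 3 and TA 5. Ptprb was at -0.70 (exact permutation p = 0.0260, adjusted 0.0297). That call was lost with its other tested probe set, at -0.23 (adjusted p = 0.424, exact permutation). It was also lost without any 1 of EOM 0, 2, 3, 5 or TA 2, 3, 5, 6, at -0.68 to -0.60, with an adjusted p of up to 0.0693 (exact permutation).

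**Figure D4:**
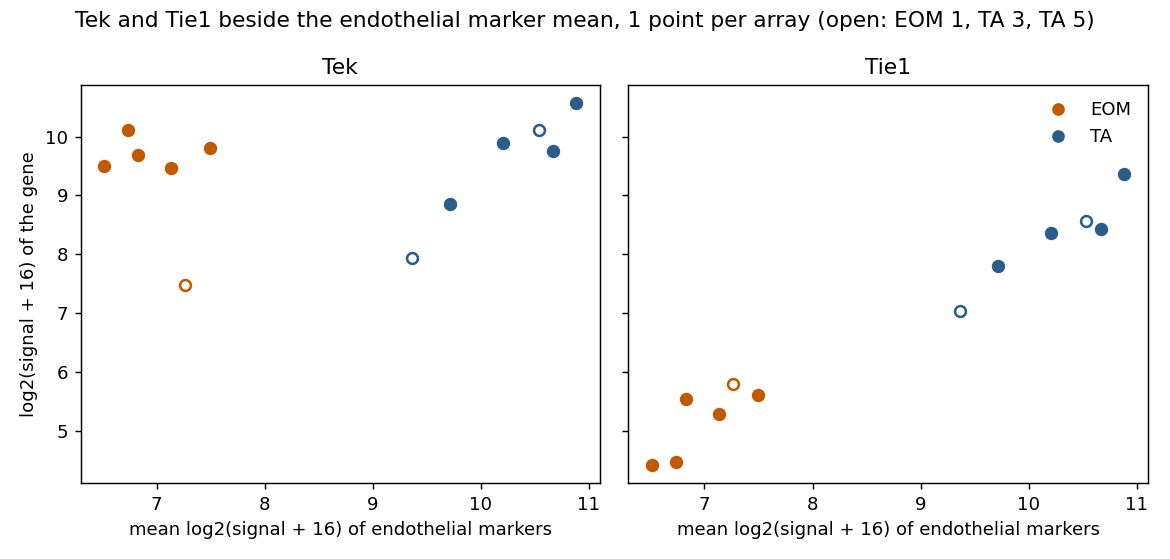
Log2(signal + 16) of Tek (left) and Tie1 (right) against the mean of the 26 endothelial markers, 1 point per array; open points are EOM 1, TA 3 and TA 5. The EOM arrays lie far to the left of the TA arrays in both panels; Tie1 is lower on them than on every TA array, whereas the Tek values of EOM overlap with those of TA.

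Relative to the endothelial mean, the values of the ligands in EOM minus those in TA were 5.87 for Angpt1, 3.42 for Apln, 2.98 for Angpt2 and 2.83 for Angpt4. The mean itself fell by 3.23, so a gene with no change of its own would also be higher relative to it, Tek included. Among the ligands Angpt1 was the one whose own signal passed the test.

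Other genes of the Tie pathway mostly did not pass the test. Of 22 listed genes (adaptors, kinases, targets and further ligands of Tie receptors), 20 were tested, of which 1 rose and 0 fell, with a median log2 fold change of 0.09. These shares, 5% and 0%, stand beside 4.05% and 6.81% of all named genes, so the share that rose is near the background. The one that rose was Grb14, an adaptor protein known to bind Tie2, with a mean of 349 ± 101 in EOM against 89.98 ± 39.0 in TA (SD, n = 6 each, log2 fold change 1.82 ± 0.33, SE, limma adjusted p = 0.00134). Klf2, a transcription factor of quiescent endothelium downstream of both systems, had a mean of 3074 ± 1114 in EOM against 5087 ± 1920 in TA (SD, n = 6 each, log2 fold change -0.72, limma adjusted p = 0.154). Foxo1, the factor that Tie2 signalling keeps out of the nucleus, was at 0.53 (limma adjusted p = 0.283). Pik3r1, a subunit of the kinase that Tie2 recruits, was at 0.56 (limma adjusted p = 0.298) with all arrays and passed without EOM 1, at 0.80 (limma adjusted p = 0.0120). Without EOM 1 more probe sets passed in general, 2254 lower and 2132 higher, against 1359 and 866 with all arrays. This holds for the other calls gained without EOM 1 below as well. Svep1, a matrix protein that binds Tie1, was at -0.31 (limma adjusted p = 0.832) with all arrays and 0.25 without EOM 1.

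Of 18 listed genes of the apelin pathway, 15 were tested, of which 1 rose and 1 fell, with a median of -0.16. Each is 6.67% of the list, beside 4.05% higher and 6.81% lower among all named genes, which is near the background. Mef2c, a transcription factor downstream of the apelin receptor, had a mean of 142 ± 45.1 in EOM against 769 ± 332 in TA (SD, n = 6 each, log2 fold change -2.20 ± 0.36, SE, limma adjusted p = 0.000481). Hdac4, a histone deacetylase that represses MEF2 factors, had a mean of 392 ± 166 in EOM against 118 ± 36.0 in TA (SD, n = 6 each, log2 fold change 1.46 ± 0.39, SE, limma adjusted p = 0.0253). The call of Hdac4 was lost without any 1 of EOM 0, 2, 3, 5, 6 or TA 1, 3, 5, and with quantile normalization or median centring. Apela, the second ligand of Aplnr, was below the filter, at 2.1 to 33.5 in EOM and 1.7 to 92.5 in TA. Mme, a peptidase that degrades apelin, did not pass with all arrays (0.85, limma adjusted p = 0.346) and did without EOM 1 (1.27, limma adjusted p = 0.0149).

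The angiopoietin-like proteins resemble angiopoietins in sequence and are not known as Tie2 ligands. Of 4 tested, 1 fell and 0 rose (limma with all 12 arrays). Angptl7 had a mean of 158 ± 68.9 in EOM against 409.6 ± 145 in TA (SD, n = 6 each, log2 fold change -1.30 ± 0.30, SE, limma adjusted p = 0.00968), a call lost with median centring. Angptl1 was at 1.20 (limma adjusted p = 0.223) with all arrays and at 1.83 (limma adjusted p = 2.16e-05) without EOM 1, and Angptl4 at 0.74 (limma adjusted p = 0.188) and 0.89 (limma adjusted p = 0.0386) without it.

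Markers of other cell types that could carry these genes also differed. Of 13 pericyte and smooth muscle markers tested, 9 fell and 0 rose (limma, median -2.06), among them Myh11 (-4.03), Rgs5 (-3.96), Acta2 (-3.85) and Tagln (-2.98), and their summed signal was 8657 to 11791 in EOM and 24806 to 40639 in TA. Of 12 fibroblast markers 7 rose and 0 fell (limma, median 1.43), with Pi16 (5.55), Dpep1 (2.07), Cd248 (2.02) and Dpt (1.90) changed most, and their summed signal was 127673 to 221473 in EOM and 71029 to 125944 in TA. The number of fibroblast markers that rose was 4 without any 1 of EOM 0, EOM 2, EOM 3, TA 3 or TA 5, and with median centring. The fibroblast markers Col1a1 (-0.84), Col1a2 (-0.09), Col3a1 (0.003), Dcn (0.16) and Lum (1.54) did not pass with all arrays. Of the pericyte and smooth muscle markers, Abcc9 (0.94), Pdgfrb (-0.51), Steap4 (-0.69) and Ndufa4l2 (-1.91) did not pass. Most of the summed signal of that list in EOM was Pdgfrb, Steap4 and Abcc9. Their means were 3292, 2462 and 2440 in EOM against 4715, 3681 and 1628 in TA. Angpt1 rose beside the fibroblast markers that rose and against the mural markers that fell. The part of either shift in the Angpt1 rise was not tested. Of 7 tip cell markers, genes of sprouting endothelium like Apln, 4 fell and 1 rose (median -1.31). The one that rose was Esm1, a secreted proteoglycan, with a mean of 459 ± 215 in EOM against 167 ± 117 in TA (SD, n = 6 each, log2 fold change 1.56 ± 0.42, SE, limma adjusted p = 0.0282), a call lost without any 1 of EOM 0, 2, 3 or TA 2, 3, 5, and with median centring. Cxcr4 (-3.27), Pdgfb (-2.73), Dll4 (-1.56) and Unc5b (-1.31) fell. The summed signal of the tip cell list was 4469 to 6812 in EOM and 4599.5 to 11692.5 in TA. Most of that sum was Adm, with a mean of 4282 in EOM and 4612 in TA (log2 fold change 0.03). Of 5 lymphatic markers 1 fell, Flt4 (-2.30), and 0 rose, with a summed signal of 1525 to 3044 in EOM and 1270.0 to 4834 in TA. Pdpn made up most of this sum, with a mean of 1597 in EOM and 1927 in TA (log2 fold change 0.03). Of 11 leukocyte markers tested 7 fell and 0 rose, with Tyrobp (-2.90), Ptprc (-2.63), Cd53 (-2.42) and Laptm5 (-2.26) changed most (limma, median -2.23, summed signal 570 to 4512 in EOM and 4427 to 12734 in TA). None of 3 platelet and megakaryocyte markers passed (limma, with all 12 arrays; Pf4 fell without EOM 1, at -1.58), and their list summed to 285 to 1101 in EOM and 279 to 634 in TA. Of 6 myogenic markers 1 fell, Acta1 (-1.66), while 0 fell without any 1 of EOM 0, 3, 6 or TA 2, 5, 6 or with median centring, and 3 fell without EOM 1. The myogenic list summed to 90.0 to 756 in EOM and 239.8 to 1116 in TA. None of these markers was listed at 0, which without detection calls does not show that a marker was detected.

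**Figure D5:**
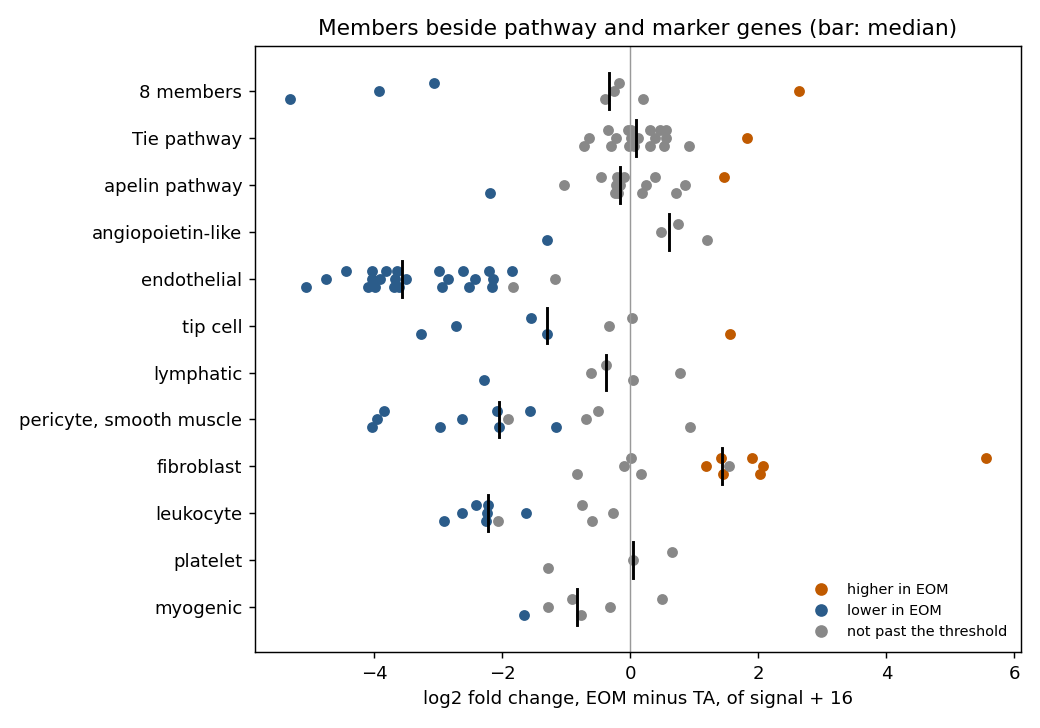
Log2 fold change (EOM minus TA, of signal + 16) of the 8 members, with 1 probe set for each, and of the tested genes of each list; bars are medians and colours show the limma call. The endothelial list has its median at -3.56 and the fibroblast list at 1.43, and the Tie and apelin pathway lists have theirs at 0.09 and -0.16.

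The genes whose profile over the 12 arrays was most like that of a member were ranked by the root mean square difference of centred log2 values among 13059 named genes. For Aplnr they were the lipoprotein receptor Scarb1 (0.77), the lipoprotein lipase anchor Gpihbp1 (0.93) and the fenestral diaphragm protein Plvap (0.99), of which Gpihbp1 and Plvap are on the endothelial list. For Tek they were the exocyst subunit Exoc1 (0.21), the decapping factor Dcp1a (0.25) and the splicing factor Prpf8 (0.26), none of which is on the endothelial list. For Angpt1 they were Mbd1 (0.35), which binds methylated DNA, the nuclear receptor Nr2f1 (0.42) and the bicarbonate transporter Slc4a4 (0.43). Since likeness of profile chose these genes, their differences between the sources follow from the choice. The measure includes the difference between the sources, in which Tek (-0.18) was above all 26 endothelial markers. Being on that list or not thus follows in part from the fold changes and is not separate evidence. All 12 arrays, including the 3 that stand apart, shape these rankings, and likeness within a single source was not ranked. On the log2 scale, Tie1 minus Tek ran from -1.54 to -0.90 within TA and from -5.65 to -1.69 within EOM. The Tek signal, on a linear scale, ran from 230.2 to 1505 in TA and from 162 to 1089 in EOM.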

How the data were processed

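Per the labels, total RNA of 12 side population preparations was amplified in 2 cycles and hybridized to Affymetrix mouse expression arrays. The deposited values are intensities on a linear scale, summarized per probe set with MAS5, per the submitters' processing notes. The trimmed mean (2% at each end) was 150 in all 12 columns, so each array was scaled as a whole before it was deposited. Detection calls are not used here.

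Signals were taken as log2(signal + 16). Without the 64 controls, probe sets in the lowest 40% by mean level were not tested, which left 27022. The comparison used limma 3.58.1 under R 4.3.3 (intensity trend, two-sided, Benjamini-Hochberg, threshold 0.05). On data simulated for EOM against TA over 27022 probe sets, the fit recovered 6 of 60 changes of 1, 34 of 53 of 2 and 44 of 49 of 3 (log2). These counts cover the changed probe sets that passed the filter, out of 66, 67 and 67 changed. The simulated noise was independent between probe sets, so no simulated array stood apart as a whole. Differences between genes were tested by exact permutation. The annotation gave 1 symbol for 34945 probe sets, several for 932 and none for 9160. Symbols were checked against GRCm38.p6 by gene identifier (0 changed, 204 unmatched). No 2 columns were identical. Groups and replicate numbers come from the titles.

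All members were named, with up to 4 called genes of the largest change per list, every called gene of the pathway lists and the 3 most alike profiles of Aplnr, Tek and Angpt1. The pathway and marker genes named without a call, and the examples given without EOM 1, were chosen after their values were seen. So was the choice to print Tek and Tie1. The members and lists were chosen with earlier results of these data known. Alternatives changed 1 choice at a time: the constant, normalization, filter, trend, array weights, a replicate block, the log2 ratio of 3' to 5' control signals in the model, and arrays left out. No file build is given in the sources used here, so no probe set position is given.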

Additional observations from a re-analysis of the deposited data

Results flagged for a closer look

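In 5 of 28 groups of 6 arrays (14 member probe sets in 2 sources), 1 array lay apart from the other 5 by more than the 95% limit of Dixon's test, which chance exceeds in about 1 of 20 groups. All 5 were EOM 1, the array with the highest median signal, at 87.2. EOM 1 was low for Angpt1 probe set 1439066_at, at 231.8, and for Tek, at 161.8. It was high for Apln, at 463.8, for Angpt2 probe set 1459636_at, at 127.6, and for Angpt1 probe set 1421441_at, at 17.9.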

How the results depend on the processing

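The 5 member probe sets that fell did so under all alternatives, and 1 rose (Angpt1), or 2 with array weights and without EOM 1, TA 3 and TA 5 together, where an Angpt4 probe set joined it. With array weights 2872 of all probe sets fell and 2616 rose, against 1359 and 866, and the Tie pathway list had 2 lower and 2 higher and the apelin pathway list 2 lower and 3 higher. Without those 3 arrays 2434 fell and 2275 rose, the Tie pathway list had 2 lower and 2 higher, the apelin pathway list 3 higher, and Apln was at -0.00122. Median centring gave 890 lower and 555 higher, and with it or quantile normalization 0 apelin pathway genes rose. When the ratio of 3' to 5' control signals was in the model 1 Tie pathway gene and 2 apelin pathway genes fell. Quantile normalization gave Angpt2 minus Tek as 0.078. Relative to the endothelial mean, Tie1 was at -0.45 with a constant of 1 and 0.72 with 64, and Ptprb did not pass with a constant of 1 (-0.54) or quantile normalization (-0.67). The cause of these changes was not tested.

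With 1 array left out, 1012 (without EOM 2) to 2254 (without EOM 1) of all probe sets fell and 568 (without EOM 2) to 2132 (without EOM 1) rose. The Tie pathway list had 1 to 2 higher and the apelin pathway list 0 to 2. Tek ranged over -0.50 to 0.19, Apln over -0.11 to 0.30, Angpt2 minus Tek over -0.41 to 0.22, Angpt4 minus Tek over -0.72 to 0.32, and Ptprb relative to the endothelial mean over -0.88 to -0.60. Tek, Apln and both of these differences passed the threshold in none of the 12 fits (limma or exact permutation).

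Arrays with the same replicate number did not deviate together: 2 of 6 numbers had a correlation over 0.1 (from -0.32 to 0.16), and 1 of 12 arrays correlated best with its own number. With the number as a replicate block, 1025 of all probe sets fell and 607 rose, 5 member probe sets fell and 1 rose, and Ptprb relative to the endothelial mean was at -0.70 (adjusted p = 0.107, exact permutation). With the block the calls of Esm1 and Acta1 were lost as well.

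With the other tested probe set of Angpt4, Aplnr and Ptprb, an alternative chosen after seeing the data, Angpt4 minus Tek was 1.10, and relative to the endothelial mean Aplnr was at 1.12 and Ptprb at -0.23. Tie1 and Aplnr are near the level of the filter in EOM. With constants of 1 and 64 Tie1 was at -3.94 and -2.07, Aplnr at -6.13 and -4.18 (1438651_a_at) and at -2.89 and -1.31 (1423037_at), and Apln minus Aplnr at 6.33 and 4.35.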
